A study of Mus musculus with 15 samples.

Results

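The genes of the interleukins and of their receptors were followed in spleen cells of 5 groups of transgenic mice, among them a high-risk myelodysplastic syndrome (HR-MDS) model and a model of acute myeloid leukemia after myelodysplasia (AML post MDS). Members were all genes with a symbol that starts with Il and a digit, taken from probe sets annotated with 1 symbol. There were 70 such genes among 14860. They comprised 36 interleukins, which are called ligands below, 30 receptor chains, 3 inhibitors (Il1rn, Il1f5 and Il22ra2) and Il4i1, which is neither. A further 3 probe sets that name an interleukin gene together with other genes were left out.

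All mice were on the FVB/N background, and each group had 3 mice with 1 array each. AML post MDS mice (mice 3622, 3626 and 3518) carried NRASD12, a mutant human NRAS, and human BCL2, both under the MRP8 promoter, which is active in myeloid cells, and were 36 days old. HR-MDS mice (8111, 8019 and 8398) carried MRP8NRASD12 and a human BCL2 under a tetracycline-responsive element driven by tTA from the MMTV long terminal repeat, and were 80 days old. MRP8NRASD12 mice (8157, 8158 and 8159), MRP8hBCL2 mice (3012, 3386 and 3391) and tethBCL2 mice (7758, 7465 and 7466) carried a single transgene system and are the founders of the 2 models. No age was found for the founders, and the disease label reads AML for all samples, founders included, so groups were taken from the titles. Between AML post MDS and HR-MDS mice, age, BCL2 promoter and disease differed together and cannot be told apart. The cells were Sca1+ mononuclear cells of the spleen. Normal FVB/N mice are not analysed here, and every comparison is between transgenic groups. Mice of the 2 groups with MRP8-driven hBCL2 were numbered from 3012 to 3626 and those of the other groups from 7465 to 8398. What the numbers stand for is not given. The number series and the MRP8hBCL2 transgene therefore cannot be told apart.

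Interleukins are secreted proteins with which blood cells signal to each other and to their surroundings. Their receptors are built from several chains, of which some bind 1 ligand and others, such as the gp130 protein of Il6st or the chain of Il1rap, are shared by several cytokines. Most of these receptors signal through JAK kinases and STAT factors, while those of the IL-1 family use MyD88 and those of IL-17 use their own adaptor. In the spleen the ligands come mainly from lymphocytes, myeloid cells, basophils and mast cells, and the chains are spread over nearly all blood cells.

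Expression was read as 1 log2 value per probe set and array on exon arrays. A level is comparable between arrays for 1 gene and not between genes, and detection calls were not used here. The ± after a level is the SD of 3 arrays, and the ± after a log2 fold change is its standard error from the fit over all 15 arrays. The array medians lay between 6.55 and 6.88, and the mean correlation of an array with its group lay between 0.964 and 0.988, except for MRP8NRASD12 8157 with 0.947. Eif2s3y, a Y-linked gene, was between 3.64 and 4.01 in the 3 MRP8NRASD12 mice and AML post MDS 3518 and between 9.25 and 10.3 in the other arrays, so that sex and the MRP8NRASD12 genotype cannot be told apart. Ly6a, the gene of Sca1, was not measured by a probe set of 1 symbol here, and the sort could not be checked on it.

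The arrays held RNA of several cell types. The median log2 value of 14 measured neutrophil markers ranged from 9.26 to 10.2 in AML post MDS mice, from 7.96 to 11.0 in HR-MDS mice, from 10.7 to 12.1 in MRP8NRASD12 mice, from 7.47 to 8.49 in MRP8hBCL2 mice and from 5.55 to 5.95 in tethBCL2 mice. The median of 8 T cell markers was 10.1 to 10.4 in AML post MDS, 9.60 to 9.80 in HR-MDS, 9.02 to 9.72 in MRP8NRASD12, 10.7 to 10.9 in MRP8hBCL2 and 9.65 to 9.98 in tethBCL2 mice. The median of 10 basophil and mast cell markers was 6.97 to 7.60 in AML post MDS mice, 5.31 to 6.10 in HR-MDS mice, 5.86 to 6.54 in MRP8NRASD12 mice, 5.31 to 6.02 in MRP8hBCL2 mice and 5.31 to 5.44 in tethBCL2 mice. Neutrophil markers were thus lowest in tethBCL2 mice, T cell markers highest in MRP8hBCL2 mice, and basophil and mast cell markers highest in AML post MDS mice. In such mixed cells, fewer cells of a type and less RNA per cell cannot be told apart.

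Over the 5 groups, 24 of the 70 members differed in a moderated F test (limma, adjusted p under 0.05 after Benjamini-Hochberg over all genes). This is 34.3% of the members, and 34.3% of all 14860 genes passed the same test, so that as a whole the members varied as often as other genes. Among the ligands 8 of 36 passed (22.2%), among the receptor chains 15 of 30 (50%), and among the inhibitors 1 of 3, Il1rn. The ligands that passed were Il1a, Il1b, Il1f9, Il2, Il10, Il13, Il17c and Il21. The receptor chains were Il1rap, Il1rl2, Il2ra, Il5ra, Il6st, Il7r, Il12rb1, Il12rb2, Il13ra1, Il17ra, Il17rb, Il18r1, Il21r, Il23r and Il27ra. Whether the shares of ligands and receptor chains differ was not tested.

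**Figure D1:**
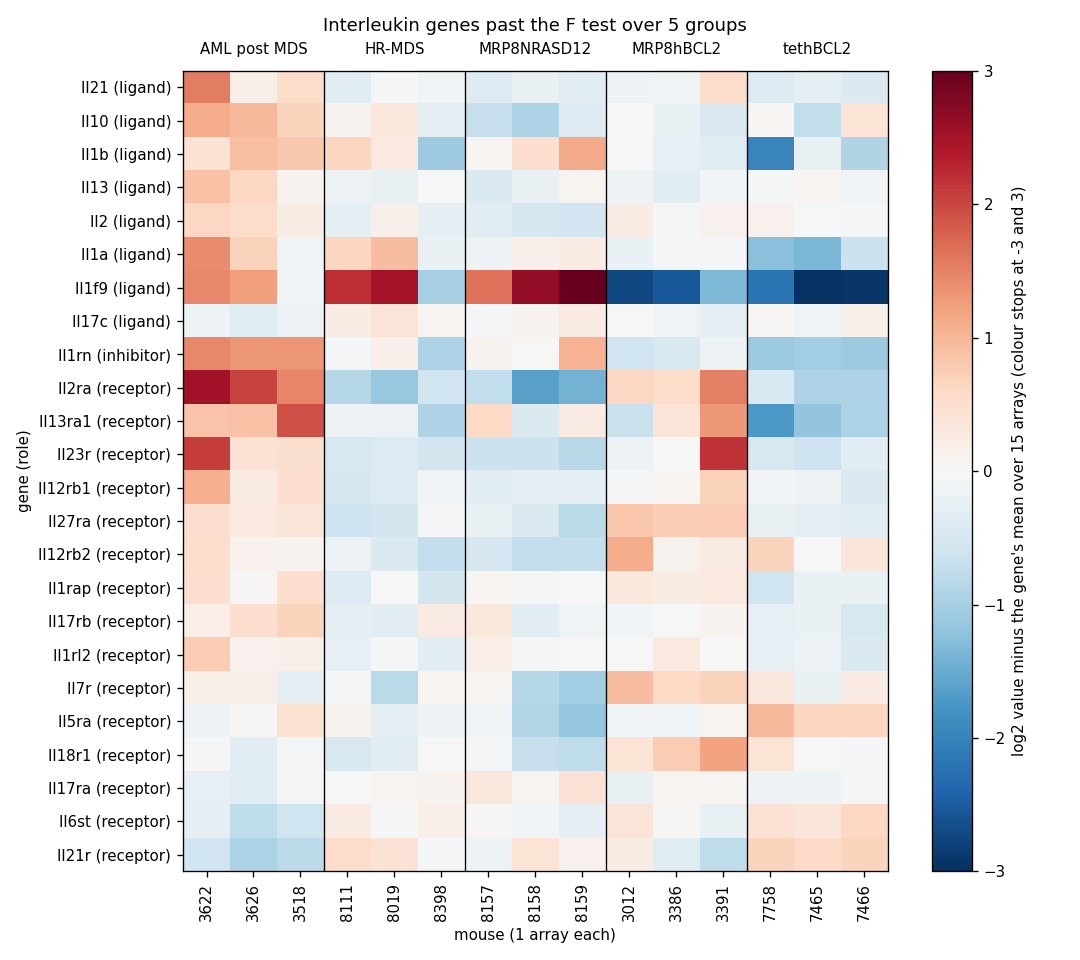
Each row is 1 of the 24 members past the F test, each column 1 array, and the colour is the log2 value minus the gene's mean over the 15 arrays, red above and blue below it. Il1f9 is high in AML post MDS, HR-MDS and MRP8NRASD12 mice except in AML post MDS 3518 and HR-MDS 8398, while Il2ra and Il1rn are highest on average in AML post MDS mice.

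**Figure D2:**
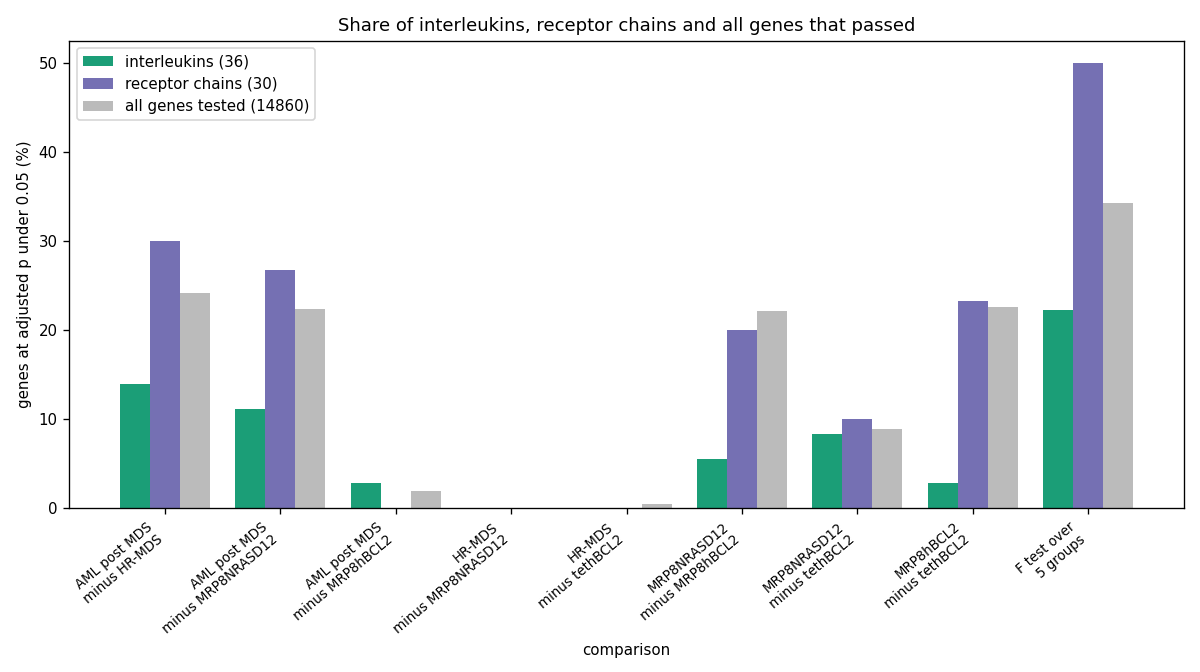
Bars give the percent of 36 interleukins, of 30 receptor chains and of all 14860 genes that passed in each comparison and in the F test over 5 groups. In the comparisons of AML post MDS with HR-MDS and with MRP8NRASD12 mice the share of ligands lies below that of all genes and the share of receptor chains lies above it.

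The widest range among the ligands belonged to Il1f9, which encodes IL-36 gamma, an inflammatory cytokine of the IL-1 family. Its log2 values were 9.14, 8.97 and 7.61 in AML post MDS mice, 9.92, 10.21 and 6.69 in HR-MDS mice, 9.33, 10.33 and 11.82 in MRP8NRASD12 mice, 4.96, 5.15 and 6.35 in MRP8hBCL2 mice and 5.51, 4.74 and 4.78 in tethBCL2 mice. All 9 arrays with NRASD12 lay above all 6 arrays without it. Compared with tethBCL2 mice, MRP8NRASD12 mice were 44.8-fold higher (log2 fold change 5.49 ± 0.83, adjusted p = 0.00230), and compared with MRP8hBCL2 mice they were 32.2-fold higher (5.01 ± 0.83, adjusted p = 0.000763). The 2 models did not pass against their BCL2 founders, with 3.93 ± 0.83 for HR-MDS minus tethBCL2 (adjusted p = 0.0613) and 3.08 ± 0.83 for AML post MDS minus MRP8hBCL2 (adjusted p = 0.0722). Without HR-MDS 8398, the HR-MDS array with the lowest Il1f9 and the lowest neutrophil markers, HR-MDS minus tethBCL2 was 5.06 and passed (adjusted p = 0.00170). Leaving out the lowest array of the higher group raises the difference by construction, and 7 of 24 alternative settings passed.

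Il1f9 and the neutrophil markers stood in nearly the same order over the arrays. Within HR-MDS mice the median neutrophil marker was 10.5, 11.0 and 7.96 where Il1f9 was 9.92, 10.21 and 6.69, and in AML post MDS mice it was 10.2, 9.93 and 9.26 where Il1f9 was 9.14, 8.97 and 7.61. MRP8NRASD12 8159 had the highest value of both, 12.1 for the markers and 11.82 for Il1f9. All 14 measured neutrophil markers passed as higher in MRP8NRASD12 than in tethBCL2 mice, and 10 of 14 passed as higher in MRP8NRASD12 than in MRP8hBCL2 mice. The part of neutrophil content in the Il1f9 difference was not tested. The promoter window of Il1f9, from 250 bases before to 50 after the gene's start in RefSeq (GRCm38.p6, chr2:24186226-24186525, plus strand), is shown because this gene had the largest fold changes. Capitals mark TTCNNNGAA, the motif bound by STAT factors, at -128 to -120 from the start.

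Il1f9: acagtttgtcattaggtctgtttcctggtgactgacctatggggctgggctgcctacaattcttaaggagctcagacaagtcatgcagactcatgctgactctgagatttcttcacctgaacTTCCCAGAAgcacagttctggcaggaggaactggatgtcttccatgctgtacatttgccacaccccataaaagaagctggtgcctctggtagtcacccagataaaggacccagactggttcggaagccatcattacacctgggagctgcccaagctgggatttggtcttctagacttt

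Il1a and Il1b, the alarm cytokines that bind the IL-1 receptor, were lowest in tethBCL2 mice. Il1a was 7.50, 6.78 and 5.97 in AML post MDS mice, 6.71, 7.01 and 5.87 in HR-MDS mice, 5.94, 6.23 and 6.30 in MRP8NRASD12 mice, 5.87, 6.04 and 6.02 in MRP8hBCL2 mice and 4.82, 4.70 and 5.42 in tethBCL2 mice. The tethBCL2 mice lay below all other arrays, but none of the 8 comparisons of 2 groups passed for Il1a. HR-MDS minus tethBCL2 was 1.55 ± 0.34 (adjusted p = 0.0713), and 1.88 without HR-MDS 8398 (adjusted p = 0.0180). HR-MDS 8398 was the lowest of its group for Il1a too, and 7 of 24 alternative settings passed. Il1b averaged 9.64 ± 0.24 in AML post MDS mice, 8.86 ± 0.91 in HR-MDS mice, 9.48 ± 0.54 in MRP8NRASD12 mice, 8.72 ± 0.19 in MRP8hBCL2 mice and 7.88 ± 0.89 in tethBCL2 mice. Il1b passed as higher in MRP8NRASD12 than in tethBCL2 mice by 1.60 ± 0.45 (adjusted p = 0.0436). That call held only when MRP8NRASD12 8157, tethBCL2 7465, HR-MDS 8111, HR-MDS 8398 or MRP8hBCL2 3391 was the array left out, and the adjusted p was up to 0.185 with any other. The median of 10 monocyte and macrophage markers was 9.39 to 9.56 in AML post MDS, 8.78 to 9.25 in HR-MDS, 9.04 to 9.83 in MRP8NRASD12, 7.88 to 9.13 in MRP8hBCL2 and 7.69 to 8.23 in tethBCL2 mice, so that these markers, like Il1a and Il1b, were lowest on average in tethBCL2 mice. Their part in the Il1a and Il1b differences was not tested.

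Il1rn encodes the IL-1 receptor antagonist, which occupies the IL-1 receptor without signaling. Its values were 8.62, 8.51 and 8.52 in AML post MDS mice, 7.14, 7.35 and 6.25 in HR-MDS mice, 7.28, 7.19 and 8.23 in MRP8NRASD12 mice, 6.58, 6.71 and 7.04 in MRP8hBCL2 mice and 6.06, 6.15 and 6.10 in tethBCL2 mice. The 3 AML post MDS mice lay above all other arrays. The log2 fold change was 1.64 ± 0.28 against HR-MDS mice (3.11-fold, adjusted p = 0.000761), 0.98 ± 0.28 against MRP8NRASD12 mice (adjusted p = 0.0216) and 1.77 ± 0.28 against MRP8hBCL2 mice (adjusted p = 0.0134). The call against HR-MDS mice held with any 1 of the 15 arrays left out. The call against MRP8NRASD12 mice was lost without MRP8NRASD12 8157 (adjusted p = 0.0597), MRP8NRASD12 8158 (0.0949) or AML post MDS 3622 (0.0644), and that against MRP8hBCL2 mice without MRP8hBCL2 3012 (0.0629) or 3386 (0.0935). Il1rn also rose in MRP8NRASD12 compared with tethBCL2 mice, by 1.46 ± 0.28 (adjusted p = 0.00686).

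Il10, the anti-inflammatory ligand, was 7.77, 7.63 and 7.34 in AML post MDS mice, 6.78, 6.98 and 6.38 in HR-MDS mice, 5.98, 5.74 and 6.28 in MRP8NRASD12 mice, 6.66, 6.46 and 6.23 in MRP8hBCL2 mice and 6.73, 5.92 and 7.07 in tethBCL2 mice. The AML post MDS mice lay above all other arrays. Il10 was 2.99-fold higher in AML post MDS than in MRP8NRASD12 mice (1.58 ± 0.26, adjusted p = 0.000610), a call that held with any 1 array left out. It was 1.82-fold higher than in HR-MDS mice (0.87 ± 0.26, adjusted p = 0.0240), but not without HR-MDS 8111 (adjusted p = 0.0539), HR-MDS 8398 (0.104), AML post MDS 3622 (0.0866) or AML post MDS 3626 (0.0651). Against MRP8hBCL2 mice it was 2.19-fold higher (1.13 ± 0.26, adjusted p = 0.0391). This was lost without any one of the 3 AML post MDS arrays, of the 3 MRP8hBCL2 arrays, HR-MDS 8111 or tethBCL2 7758, at an adjusted p of up to 0.177. Il10rb, a chain of the IL-10 receptor, did not pass in any comparison, and AML post MDS minus HR-MDS was -0.12 ± 0.16.

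**Figure D3:**
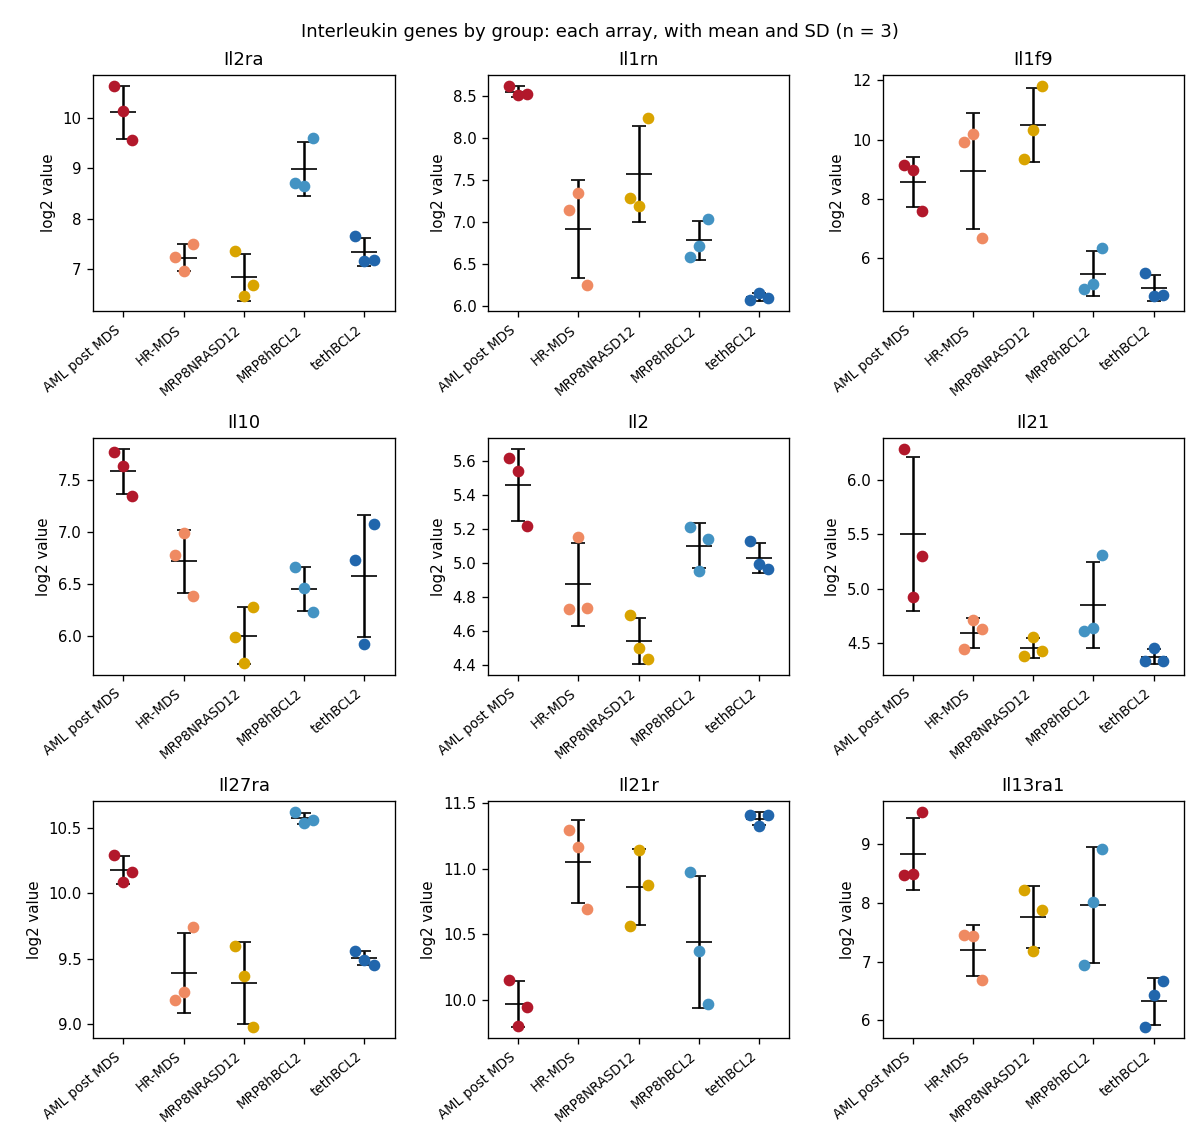
Points are the log2 values of single arrays in the 5 groups for 9 members, and lines give the mean and SD (n = 3). In AML post MDS mice Il2ra is between 9.56 and 10.63 and Il1rn between 8.51 and 8.62, both higher than in the 3 HR-MDS arrays, while Il21r is between 9.80 and 10.15, below the 3 HR-MDS arrays.

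Il2 and Il21, growth factors of T and B lymphocytes, are neighbours on chromosome 3, and both were highest on average in AML post MDS mice. Il2 was 5.62, 5.54 and 5.21 in AML post MDS mice, 4.73, 5.15 and 4.74 in HR-MDS mice, 4.69, 4.50 and 4.43 in MRP8NRASD12 mice, 5.21, 4.95 and 5.14 in MRP8hBCL2 mice and 5.13, 4.99 and 4.96 in tethBCL2 mice. Relative to HR-MDS mice Il2 rose by 0.58 ± 0.14 (adjusted p = 0.00733) and relative to MRP8NRASD12 mice by 0.92 ± 0.14 (adjusted p = 0.000386), both with any 1 array left out. It fell in MRP8NRASD12 compared with MRP8hBCL2 mice (-0.56 ± 0.14, adjusted p = 0.0106). Compared with tethBCL2 mice it fell as well (-0.49 ± 0.14, adjusted p = 0.0450). This call was kept only when the array left out was MRP8NRASD12 8157, HR-MDS 8019, MRP8hBCL2 3012, AML post MDS 3622 or AML post MDS 3518, and the adjusted p was up to 0.168 with any other. Of 8 T cell markers 5 rose and 0 fell in AML post MDS compared with MRP8NRASD12 mice, and 4 rose and 1 fell compared with HR-MDS mice. In MRP8NRASD12 mice 7 fell and 0 rose against MRP8hBCL2 mice, and 1 fell and 0 rose against tethBCL2 mice. The part of T cell content in the Il2 and Il21 differences was not tested.

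Il21 was 6.29, 4.92 and 5.30 in AML post MDS mice, 4.44, 4.71 and 4.63 in HR-MDS mice, 4.38, 4.55 and 4.42 in MRP8NRASD12 mice, 4.61, 4.63 and 5.31 in MRP8hBCL2 mice and 4.33, 4.45 and 4.33 in tethBCL2 mice. AML post MDS 3622 was the highest array by far. Il21 was higher in AML post MDS than in MRP8NRASD12 mice (1.05 ± 0.27, adjusted p = 0.0125) and than in HR-MDS mice (0.91 ± 0.27, adjusted p = 0.0247). The call against HR-MDS mice was lost without AML post MDS 3622 (0.52, adjusted p = 0.0785), HR-MDS 8111 (0.84, adjusted p = 0.0848) or HR-MDS 8398 (0.93, adjusted p = 0.0567). Both Il2 and Il21 lie among the 0.25 of genes with the lowest means over the arrays. Their promoter windows (RefSeq, GRCm38.p6, minus strand, chr3:37125905-37126204 for Il2 and chr3:37232587-37232886 for Il21) are shown because the pair passed in the same comparisons of AML post MDS mice. Capitals mark TATAAA at -31 to -26 in Il2, and Il21 holds none of the motifs searched.

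Il2: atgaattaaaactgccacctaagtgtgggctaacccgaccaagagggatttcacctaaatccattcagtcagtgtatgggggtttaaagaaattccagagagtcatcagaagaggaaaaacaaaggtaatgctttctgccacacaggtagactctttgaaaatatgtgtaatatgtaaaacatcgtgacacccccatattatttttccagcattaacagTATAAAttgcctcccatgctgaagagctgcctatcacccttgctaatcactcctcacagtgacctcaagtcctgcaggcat
Il21: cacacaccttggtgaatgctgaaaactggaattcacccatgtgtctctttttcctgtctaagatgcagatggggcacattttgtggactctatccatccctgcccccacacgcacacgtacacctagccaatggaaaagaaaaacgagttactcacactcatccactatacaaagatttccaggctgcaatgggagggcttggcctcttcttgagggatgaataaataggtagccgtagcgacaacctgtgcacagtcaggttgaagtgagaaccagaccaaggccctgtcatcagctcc

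Il13, a type 2 cytokine, was 7.21, 6.96 and 6.45 in AML post MDS mice, 6.19, 6.12 and 6.33 in HR-MDS mice, 5.89, 6.12 and 6.41 in MRP8NRASD12 mice, 6.18, 6.01 and 6.26 in MRP8hBCL2 mice and 6.31, 6.39 and 6.23 in tethBCL2 mice. It was 1.66-fold higher in AML post MDS than in MRP8NRASD12 mice (0.73 ± 0.17, adjusted p = 0.00747) and 1.58-fold higher than in HR-MDS mice (0.66 ± 0.17, adjusted p = 0.0126). The call against HR-MDS mice was lost without AML post MDS 3622 (0.49, adjusted p = 0.0600). The median basophil and mast cell marker of the same 3 AML post MDS mice was 7.60, 7.42 and 6.97, in the same order as Il13. Of these 10 markers 3 passed as higher in AML post MDS than in HR-MDS mice and none as lower. Against MRP8NRASD12 mice 3 passed as higher and 1 as lower. The part of these cells in the Il13 difference was not tested. Il4 and Il5, which lie beside Il13 on chromosome 11, did not pass, and AML post MDS minus HR-MDS was 0.12 ± 0.15 for Il4 and 0.04 ± 0.19 for Il5.

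Il17c and Il15 each passed in a single comparison. Il17c, a member of the IL-17 family, was lower in AML post MDS than in HR-MDS mice (-0.47 ± 0.13, adjusted p = 0.0144), but not without HR-MDS 8019 or AML post MDS 3626 (adjusted p up to 0.0673). Il15, which maintains natural killer and memory T cells, was 5.14, 5.79 and 5.97 in MRP8hBCL2 mice and 4.68, 4.97 and 5.17 in tethBCL2 mice. It passed as higher there by 0.70 ± 0.22 (adjusted p = 0.0346), with overlapping arrays, and was lost without tethBCL2 7758 or 7465 or MRP8hBCL2 3386 or 3391 (adjusted p up to 0.152). Il12a, Il16 and Il27 did not pass in any comparison, nor did Il3 and Il6. For Il3, a growth factor of basophils and mast cells, AML post MDS minus MRP8hBCL2 was 0.54 ± 0.16 (adjusted p = 0.0924).

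**Figure D4:**
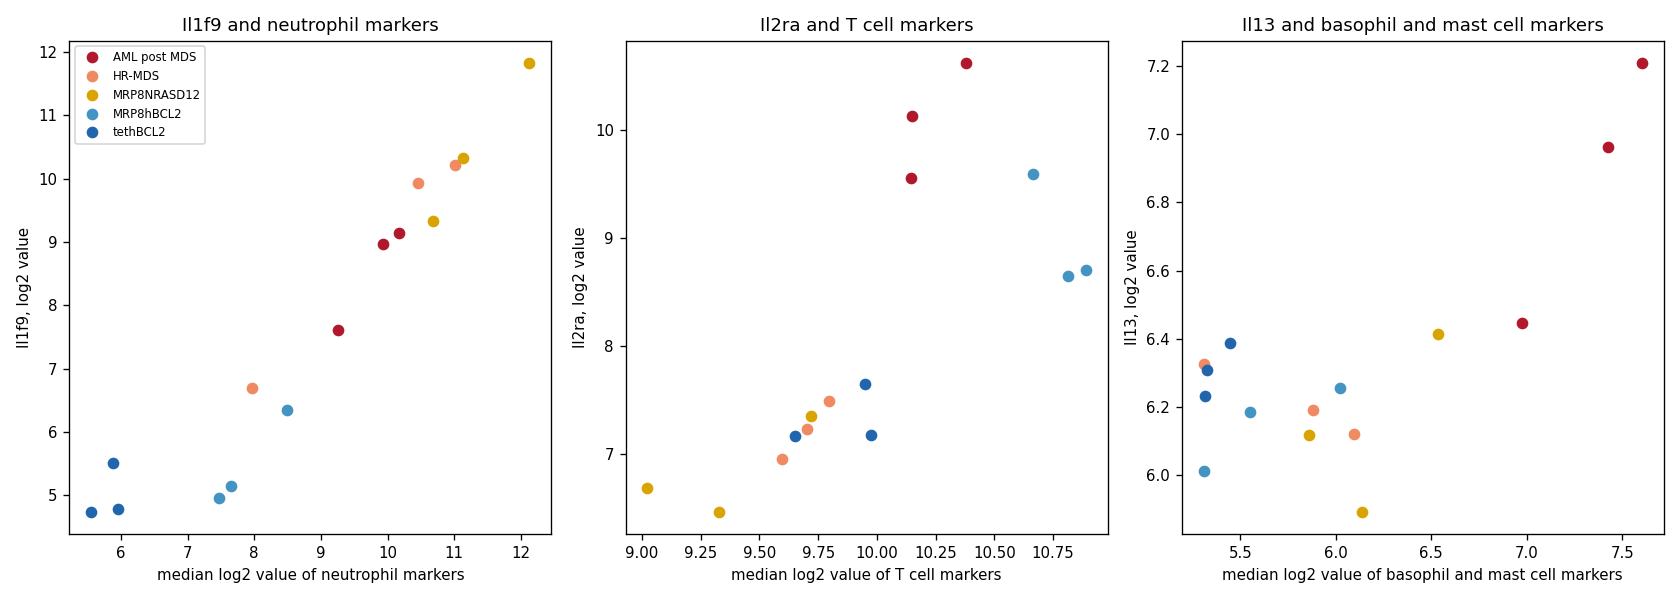
Each point is 1 of the 15 arrays, with the median log2 value of a cell type's markers on the horizontal axis and the log2 value of a member on the vertical axis. Il1f9 and the neutrophil markers are both highest in MRP8NRASD12 8159, and Il13 is highest in AML post MDS 3622. In the mean, Il2ra is higher and the T cell markers are lower in AML post MDS than in MRP8hBCL2 mice. That Il2ra difference did not pass, and the arrays of these groups overlap in Il2ra.

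Il2ra, the alpha chain of the IL-2 receptor (CD25), had the widest range among the receptor chains. It was 10.63, 10.13 and 9.56 in AML post MDS mice, 7.23, 6.95 and 7.49 in HR-MDS mice, 7.35, 6.46 and 6.68 in MRP8NRASD12 mice, 8.71, 8.65 and 9.60 in MRP8hBCL2 mice and 7.65, 7.17 and 7.17 in tethBCL2 mice. Both groups with MRP8-driven hBCL2 lay above the other 3 groups, a split that the mouse numbers follow as well. AML post MDS mice were 7.37-fold higher than HR-MDS mice (2.88 ± 0.31, adjusted p = 2.56e-05) and 9.67-fold higher than MRP8NRASD12 mice (3.27 ± 0.31, adjusted p = 1.18e-05). MRP8hBCL2 mice were 3.15-fold higher than tethBCL2 mice (1.66 ± 0.31, adjusted p = 0.00171), and MRP8NRASD12 mice were lower than MRP8hBCL2 mice by a log2 fold change of -2.15 ± 0.31 (adjusted p = 0.000293). These 4 calls held with any 1 array left out.

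AML post MDS minus MRP8hBCL2 was 1.12 ± 0.31 for Il2ra and did not pass (adjusted p = 0.0808), with MRP8hBCL2 3391 and AML post MDS 3518 overlapping. Without MRP8hBCL2 3391 it was 1.43 and passed (adjusted p = 0.0166). That array was the highest of its group, so leaving it out raised the difference by construction, and 3 of 24 alternative settings passed. The T cell markers were also highest in the 2 groups with MRP8-driven hBCL2, but with MRP8hBCL2 above AML post MDS mice, and 4 of 8 passed as higher and 1 as lower in AML post MDS than in HR-MDS mice. The part of T cell content in the Il2ra difference was not tested. Il15ra, the neighbour of Il2ra on chromosome 2, did not pass, and AML post MDS minus HR-MDS was 0.24 ± 0.12. The promoter window of Il2ra (RefSeq, GRCm38.p6, chr2:11642542-11642841, plus strand) is shown because this chain had the largest change among receptors. Capitals mark overlapping matches to the κB consensus that begin at -201.

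Il2ra: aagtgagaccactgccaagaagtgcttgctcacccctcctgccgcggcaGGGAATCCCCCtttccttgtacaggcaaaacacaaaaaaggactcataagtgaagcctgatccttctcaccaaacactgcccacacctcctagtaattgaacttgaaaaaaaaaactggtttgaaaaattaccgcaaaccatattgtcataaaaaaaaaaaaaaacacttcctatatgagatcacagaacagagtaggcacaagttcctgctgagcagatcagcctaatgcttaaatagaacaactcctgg

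The motifs were searched on both strands of promoter windows of 300 bases, of which RefSeq gives 67 for 54 of the members. TTCNNNGAA was found in 9 of these 67 windows (13.4%) and in 8.3% of all 32851 windows, and TGANTCA, the AP-1 motif, in 13 (19.4%) and in 7.81% of all. TATAAA was found in 12 windows (17.9%) and in 13.6% of all, and the κB consensus in 8 (11.9%) and in 8.46% of all. TTCNNNGAA and TGANTCA read alike on both strands. A match says only that these letters lie in the window.

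Il27ra and Il21r, chains that bind IL-27 and IL-21, moved in opposite directions. Il27ra was 10.29, 10.08 and 10.16 in AML post MDS mice, 9.18, 9.24 and 9.74 in HR-MDS mice, 9.60, 9.36 and 8.98 in MRP8NRASD12 mice, 10.62, 10.54 and 10.56 in MRP8hBCL2 mice and 9.56, 9.49 and 9.45 in tethBCL2 mice. As for Il2ra, the 2 groups with MRP8-driven hBCL2 lay above all other arrays, here with MRP8hBCL2 mice the highest. This is again the split that the mouse numbers follow. Il27ra was 1.73-fold higher in AML post MDS than in HR-MDS mice (0.79 ± 0.16, adjusted p = 0.00254), 1.82-fold higher than in MRP8NRASD12 mice (0.86 ± 0.16, adjusted p = 0.00150) and 2.10-fold higher in MRP8hBCL2 than in tethBCL2 mice (1.07 ± 0.16, adjusted p = 0.000317). MRP8NRASD12 minus MRP8hBCL2 was -1.26 ± 0.16 (adjusted p = 0.000108). All 4 calls held with any 1 array left out. The T cell markers were likewise highest in MRP8hBCL2 mice and next in AML post MDS mice, and their part was not tested. Its ligand gene Il27 did not pass.

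Il21r was 10.15, 9.80 and 9.94 in AML post MDS mice, 11.30, 11.16 and 10.69 in HR-MDS mice, 10.56, 11.14 and 10.88 in MRP8NRASD12 mice, 10.97, 10.37 and 9.97 in MRP8hBCL2 mice and 11.41, 11.33 and 11.41 in tethBCL2 mice. The tethBCL2 mice lay above all other arrays. AML post MDS minus HR-MDS was -1.09 ± 0.23 (adjusted p = 0.00319) and MRP8hBCL2 minus tethBCL2 was -0.95 ± 0.23 (adjusted p = 0.00807), both with any 1 array left out. Against MRP8NRASD12 mice it was -0.89 ± 0.23 (adjusted p = 0.0116), which was lost without MRP8NRASD12 8158 (adjusted p = 0.0553). The receptor chain thus fell in the 2 comparisons of AML post MDS mice in which its ligand gene Il21 rose. B cells are among the cells known to carry this receptor. Of the 9 measured B cell markers 3 fell and 0 rose in AML post MDS compared with HR-MDS mice. Their median was 10.8 to 11.2 in AML post MDS mice and 11.3 to 11.6 in HR-MDS mice. Against MRP8NRASD12 mice, with a median of 11.1 to 11.9, the markers went both ways, and 2 rose and 3 fell in AML post MDS mice. In MRP8hBCL2 compared with tethBCL2 mice 2 fell and 0 rose. The part of B cell content was not tested.

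Il7r, the receptor chain for IL-7, which lymphocytes need for survival, was 11.48, 11.47 and 11.03 in AML post MDS mice, 11.25, 10.50 and 11.36 in HR-MDS mice, 11.39, 10.46 and 10.27 in MRP8NRASD12 mice, between 11.90 and 12.23 in MRP8hBCL2 mice (mean 12.04 ± 0.17) and 11.63, 11.09 and 11.55 in tethBCL2 mice. The MRP8hBCL2 mice lay above all other arrays. MRP8NRASD12 minus MRP8hBCL2 was -1.34 ± 0.28 (adjusted p = 0.00409), with any 1 array left out. Il18r1, a chain of the IL-18 receptor, behaved alike in that comparison, at -1.29 ± 0.23 (adjusted p = 0.00118). It was 8.04, 7.38 and 7.31 in MRP8NRASD12 mice and 8.48, 8.83 and 9.29 in MRP8hBCL2 mice, without overlap. In the same comparison 7 of the 8 T cell markers and 6 of the 8 natural killer and cytotoxic cell markers fell and none rose, the median of the natural killer list being 6.59 to 7.27 in MRP8NRASD12 mice and 7.79 to 7.98 in MRP8hBCL2 mice. MRP8hBCL2 minus tethBCL2 was 0.67 ± 0.23 for Il18r1 (adjusted p = 0.0483), and this call was lost in 10 of the 15 fits with 1 array left out (adjusted p up to 0.213), among them the fits without MRP8hBCL2 3386 or 3391 or tethBCL2 7465 or 7466.

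Il18rap, the accessory chain of the IL-18 receptor and a neighbour of Il18r1 on chromosome 1, went the other way. It was 8.49, 8.60 and 9.86 in MRP8NRASD12 mice and 7.43, 7.37 and 8.14 in MRP8hBCL2 mice, a difference of 1.34 ± 0.38 (adjusted p = 0.0224). The call was lost without MRP8NRASD12 8159 (0.90), MRP8hBCL2 3012 or MRP8hBCL2 3386, at an adjusted p of up to 0.102. In the same arrays 10 of 14 neutrophil markers rose and none fell. The part of neutrophil, T cell and natural killer cell content in these opposite changes was not tested.

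The chains of the IL-12 and IL-23 receptors, Il12rb1, Il12rb2 and Il23r, were higher in AML post MDS than in MRP8NRASD12 mice. Il12rb1, which both receptors share, was 8.28, 7.44 and 7.68 in AML post MDS mice, 6.68, 6.76 and 7.08 in HR-MDS mice, 6.87, 6.88 and 6.88 in MRP8NRASD12 mice, 7.15, 7.23 and 7.88 in MRP8hBCL2 mice and 7.09, 7.03 and 6.74 in tethBCL2 mice. It was 1.95-fold higher in AML post MDS than in HR-MDS mice (0.96 ± 0.22, adjusted p = 0.00517) and 1.90-fold higher than in MRP8NRASD12 mice (0.92 ± 0.22, adjusted p = 0.00721), with any 1 array left out. Il12rb2, the IL-12 specific chain, was 7.93, 7.52 and 7.51 in AML post MDS mice, 7.21, 6.96 and 6.67 in HR-MDS mice, 6.88, 6.66 and 6.68 in MRP8NRASD12 mice, 8.52, 7.50 and 7.67 in MRP8hBCL2 mice and 8.07, 7.39 and 7.77 in tethBCL2 mice. The 3 MRP8NRASD12 mice lay below all AML post MDS, MRP8hBCL2 and tethBCL2 mice.

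For Il12rb2, MRP8NRASD12 minus MRP8hBCL2 was -1.16 ± 0.25 (adjusted p = 0.00422) with any 1 array left out. MRP8NRASD12 minus tethBCL2 was -1.01 ± 0.25 (adjusted p = 0.0227), lost without MRP8NRASD12 8158 or 8159 or tethBCL2 7758 or 7466 (adjusted p up to 0.0980). In AML post MDS minus MRP8NRASD12 it was 0.91 ± 0.25 (adjusted p = 0.0163), lost without MRP8NRASD12 8158 or AML post MDS 3622 (adjusted p up to 0.0710). Il23r, which lies beside Il12rb2 on chromosome 6, was 7.32, 5.67 and 5.72 in AML post MDS mice, 4.76, 4.83 and 4.68 in HR-MDS mice, 4.58, 4.60 and 4.40 in MRP8NRASD12 mice, 5.06, 5.24 and 7.41 in MRP8hBCL2 mice and 4.76, 4.62 and 4.93 in tethBCL2 mice. AML post MDS 3622 and MRP8hBCL2 3391 stood above the rest. Relative to MRP8NRASD12 mice, AML post MDS mice were higher by 1.71 ± 0.52 (adjusted p = 0.0289), lost without AML post MDS 3622 (1.17, adjusted p = 0.133), MRP8NRASD12 8158 (adjusted p = 0.0654) or MRP8NRASD12 8159 (adjusted p = 0.0779). T cell and natural killer cell markers moved the same way as these chains in part of the comparisons. In AML post MDS compared with MRP8NRASD12 mice 5 of 8 T cell and 4 of 8 natural killer and cytotoxic cell markers rose and none fell, and in MRP8NRASD12 compared with MRP8hBCL2 mice 7 of 8 and 6 of 8 fell and none rose. In AML post MDS compared with HR-MDS mice 4 of 8 T cell markers rose and 1 fell, and 3 of 8 natural killer and cytotoxic cell markers rose and none fell. In MRP8NRASD12 compared with tethBCL2 mice, where Il12rb2 fell, 1 of 8 T cell markers fell and none rose. Of the 8 natural killer and cytotoxic cell markers 0 rose and 0 fell there. The B cell markers went both ways, with 2 of 9 higher and 3 lower in AML post MDS than in MRP8NRASD12 mice. The part of these cell types was not tested.

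Il13ra1, a chain of the IL-13 receptor, was 8.47, 8.48 and 9.54 in AML post MDS mice, 7.45, 7.43 and 6.69 in HR-MDS mice, 8.22, 7.18 and 7.87 in MRP8NRASD12 mice, 6.95, 8.01 and 8.91 in MRP8hBCL2 mice and 5.89, 6.43 and 6.66 in tethBCL2 mice. The 3 AML post MDS mice lay above the HR-MDS mice, and the tethBCL2 mice lay below all other arrays. The log2 fold change of AML post MDS minus HR-MDS was 1.64 ± 0.45 (adjusted p = 0.0163), which was lost without HR-MDS 8398 or AML post MDS 3518 (adjusted p up to 0.0735). MRP8hBCL2 minus tethBCL2 was 1.63 ± 0.45 (adjusted p = 0.0175), lost without tethBCL2 7758, MRP8hBCL2 3386 or MRP8hBCL2 3391 (adjusted p up to 0.0849). The monocyte and macrophage markers given above were also lowest on average in tethBCL2 mice, and their part was not tested. Il4ra, with which this chain pairs, did not pass in any comparison, and its log2 fold change between AML post MDS and HR-MDS mice was -0.23 ± 0.21.

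Il5ra, the IL-5 specific chain that eosinophils and some B cells carry, was 6.79, 6.99 and 7.42 in AML post MDS mice, 7.08, 6.71 and 6.80 in HR-MDS mice, 6.88, 6.09 and 5.80 in MRP8NRASD12 mice, 6.89, 6.83 and 7.04 in MRP8hBCL2 mice and 7.94, 7.60 and 7.61 in tethBCL2 mice. The tethBCL2 mice lay above all other arrays. MRP8NRASD12 minus tethBCL2 was -1.46 ± 0.23 (adjusted p = 0.00315), with any 1 array left out. MRP8hBCL2 minus tethBCL2 was -0.80 ± 0.23 (adjusted p = 0.0238), lost without tethBCL2 7758, MRP8hBCL2 3012 or MRP8hBCL2 3386 (adjusted p up to 0.0973). The difference of AML post MDS from MRP8NRASD12 mice was 0.81 ± 0.23 (adjusted p = 0.0235) with overlapping arrays, lost without MRP8NRASD12 8158, MRP8NRASD12 8159 or AML post MDS 3518 (adjusted p up to 0.104). The median of 4 eosinophil markers went the other way, with 7.86 to 8.16 in MRP8NRASD12 mice and 6.32 to 6.64 in tethBCL2 mice. The median of 9 B cell markers went the same way as Il5ra between these groups. It averaged 11.4 in MRP8NRASD12 mice and 11.9 in tethBCL2 mice, with overlapping arrays, and 1 of the 9 markers passed as lower and 0 as higher. The part of eosinophil and B cell content in the Il5ra differences was not tested.

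Il6st encodes gp130, the signaling chain of the IL-6 receptor and its relatives. It was 9.71, 9.23 and 9.40 in AML post MDS mice, 10.24, 9.96 and 10.17 in HR-MDS mice, 10.03, 9.92 and 9.70 in MRP8NRASD12 mice, 10.38, 10.02 and 9.76 in MRP8hBCL2 mice and 10.43, 10.37 and 10.61 in tethBCL2 mice. It was 1.60-fold lower in AML post MDS than in HR-MDS mice (-0.68 ± 0.16, adjusted p = 0.00778), with any 1 array left out. MRP8NRASD12 minus tethBCL2 was -0.59 ± 0.16 (adjusted p = 0.0397), a call lost in 9 of the 15 fits with 1 array left out (adjusted p up to 0.167), among them those without MRP8NRASD12 8158 or 8159 or any tethBCL2 array. Il6ra, the IL-6 binding chain, was not analysed here.

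Of the chains of IL-1 family receptors, Il1rap, the shared accessory chain, was 7.78, 7.31 and 7.78 in AML post MDS mice, 6.89, 7.29 and 6.73 in HR-MDS mice, 7.33, 7.20 and 7.27 in MRP8NRASD12 mice, 7.59, 7.49 and 7.55 in MRP8hBCL2 mice and 6.68, 7.08 and 7.06 in tethBCL2 mice. AML post MDS minus HR-MDS was 0.66 ± 0.16 (adjusted p = 0.00843), with any 1 array left out, and MRP8hBCL2 minus tethBCL2 was 0.60 ± 0.16 (adjusted p = 0.0146), lost without tethBCL2 7758 (adjusted p = 0.0744). Il1rl2, the chain that binds IL-36 gamma, was higher in AML post MDS than in HR-MDS mice by 0.56 ± 0.16 (adjusted p = 0.0210), but not without HR-MDS 8111, HR-MDS 8398 or AML post MDS 3622 (adjusted p up to 0.0847). The change of Il1f9 in that comparison was -0.37 ± 0.83.

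Il1r1, the signaling IL-1 receptor, was 8.38, 6.69 and 7.22 in AML post MDS mice, 5.97, 6.23 and 5.50 in HR-MDS mice, 5.99, 5.62 and 5.86 in MRP8NRASD12 mice, 5.16, 5.04 and 7.52 in MRP8hBCL2 mice and 5.59, 5.06 and 5.21 in tethBCL2 mice. Without MRP8hBCL2 3391, the AML post MDS mice would lie above all other arrays. No comparison passed, and AML post MDS minus HR-MDS was 1.53 ± 0.55 (adjusted p = 0.0576). Il1r2, the decoy receptor that binds IL-1 without signaling, was 7.67, 9.23 and 10.40 in MRP8NRASD12 mice and 7.58, 7.03 and 6.43 in MRP8hBCL2 mice (2.09 ± 0.71, adjusted p = 0.0517).

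Among the IL-17 receptor chains, Il17ra, the common chain of these receptors, was 10.10, 10.00 and 10.29 in AML post MDS mice, against 10.68, 10.42 and 10.77 in MRP8NRASD12 mice, a log2 fold change of -0.49 ± 0.12 (adjusted p = 0.00781) with any 1 array left out. Il17rb, the chain for IL-25, was 6.25, 6.55 and 6.73 in AML post MDS mice, against 5.76, 5.71 and 6.30 in HR-MDS mice. It passed at 0.58 ± 0.19 (adjusted p = 0.0376) with overlapping arrays, and was lost without HR-MDS 8111, HR-MDS 8019, AML post MDS 3626, AML post MDS 3518 or MRP8hBCL2 3386 (adjusted p up to 0.140).

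By comparison, the most members passed between AML post MDS and HR-MDS mice, which also differed in age. Here 12 of 70 rose and 3 fell. This is 21.4% of the members, while 24.2% of all genes passed. Of the ligands 4 rose (Il2, Il10, Il13 and Il21) and 1 fell (Il17c), of the receptor chains 7 rose and 2 fell (Il6st and Il21r), and the inhibitor Il1rn rose. The median log2 fold change was 0.08 over the members and 0.00 over all genes. The methods' t-test, without adjustment, gave 12 members higher and 6 lower, 25.7% of the members against 29.8% of all genes. A further fit, chosen after seeing the data, left out 2 arrays, MRP8NRASD12 8157 and HR-MDS 8398. MRP8NRASD12 8157 had the lowest correlation with its group. HR-MDS 8398 had the lowest neutrophil markers and Il1f9 of its group, but its correlation with that group (0.978) was no exception. Without these 2 arrays 8 members rose and 3 fell, 15.7% against 23.8% of all genes.

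Between AML post MDS and MRP8NRASD12 mice 11 members rose and 2 fell, 18.6% of the members against 22.4% of all genes. The same 4 ligands rose and no ligand fell, and of the receptor chains 6 rose and 2 fell (Il17ra and Il21r). Without these 2 arrays the counts were 12 and 9, 30% of the members and also 30% of all genes. Both comparisons use the same AML post MDS arrays. Between AML post MDS and MRP8hBCL2 mice only Il1rn and Il10 passed, both higher, 2.86% of the members against 1.93% of all genes, and before adjustment p was under 0.05 for 12 members that were higher and 4 that were lower, 22.9% against 15.8% of all genes.

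**Figure D5:**
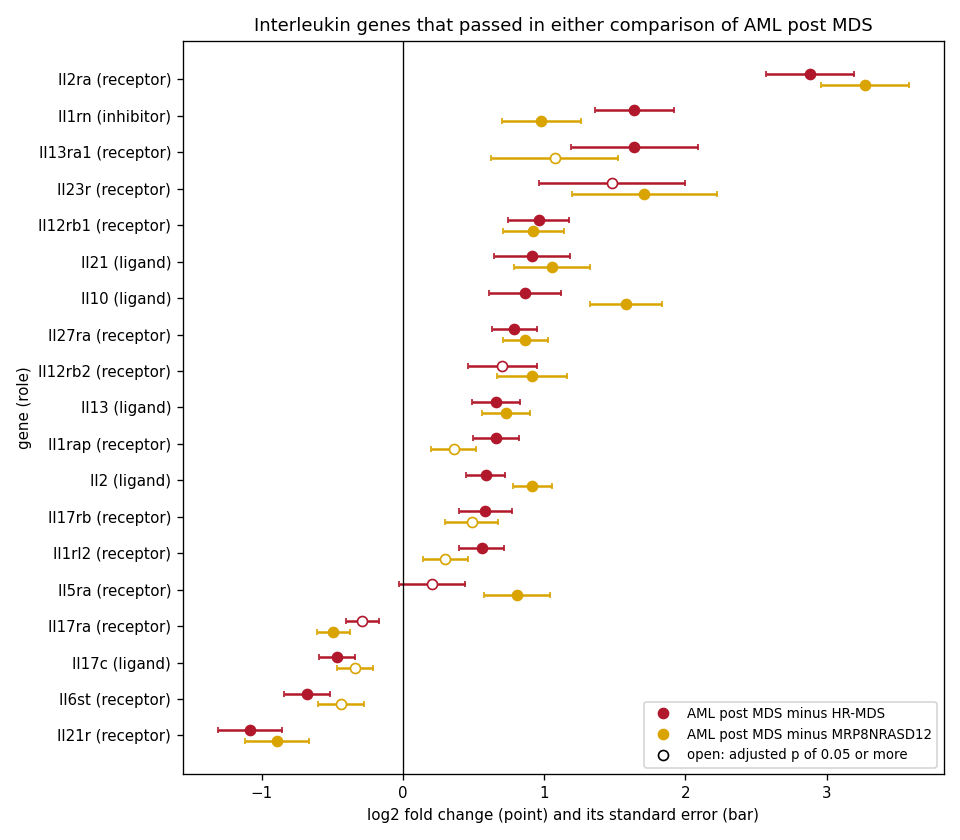
Points are the log2 fold changes of AML post MDS minus HR-MDS (red) and AML post MDS minus MRP8NRASD12 (yellow) for the members that passed in either, with the standard error as a bar, and filled points passed. Il2ra has the largest change in both, 2.88 and 3.27, and Il21r the lowest, -1.09 and -0.89.

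By limma no member passed between HR-MDS mice and either founder. Compared with tethBCL2 mice, 0 of 70 passed and 0.451% of all genes did. At an unadjusted p under 0.05 there were 7 members higher (6 ligands and Il1rn) and 2 lower (Il5ra and Il12rb2), 12.9% against 11.3% of all genes. The methods' t-test without adjustment counted 5 as higher and 4 as lower, again 12.9%, against 16.6% of all genes. Without HR-MDS 8398, Il1f9, Il1a and Il1rn passed, all higher, 4.29% of the members against 1.26% of all genes. HR-MDS 8398 had the lowest value of its group for each of these genes, so leaving it out raised these differences by construction. Compared with MRP8NRASD12 mice, 0 of 70 passed and 0.0135% of all genes did, with 3 members higher and 1 lower where p was under 0.05 before adjustment (5.71% against 6.1% of all genes). By the methods' t-test without adjustment 2 were higher, 2.86% against 3.37% of all genes. The change of AML post MDS from MRP8hBCL2 mice and that of HR-MDS from tethBCL2 mice were set against each other in 1 contrast, in which 0 of 70 members and 0 of all genes passed (0%). At an unadjusted p under 0.05 the difference was positive for 6 members, among them Il2ra (1.23 ± 0.44, adjusted p = 0.957), and negative for 2, in all 11.4% of the members against 4.6% of all genes.

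Among the founders, 3 members rose and 4 fell in MRP8NRASD12 compared with tethBCL2 mice, 10% of the members against 8.83% of all genes. Those that rose were Il1b, Il1f9 and Il1rn, all of the IL-1 family, and those that fell were Il2 and the receptor chains Il5ra, Il6st and Il12rb2. In MRP8NRASD12 compared with MRP8hBCL2 mice 2 rose (Il1f9 and Il18rap) and 6 fell (Il2, Il2ra, Il7r, Il12rb2, Il18r1 and Il27ra), 11.4% of the members against 22.1% of all genes. With the same 2 arrays dropped, these counts were 11 and 7 against tethBCL2 mice (25.7%, and 21% of all genes) and 8 and 9 against MRP8hBCL2 mice (24.3%, and 32.5% of all genes). In MRP8hBCL2 compared with tethBCL2 mice 6 rose (Il2ra, Il13ra1, Il15, Il18r1, Il1rap and Il27ra) and 2 fell (Il5ra and Il21r), again 11.4%, against 22.6% of all genes. Of the 53 calls over the 8 comparisons, 29 held with any 1 of the 15 arrays left out.

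Many members lie side by side in the genome. In the RefSeq order of genes (GRCm38.p6), 34 of the 70 fell into 12 clusters with at most 1 other coding gene between members. In 3 clusters every member passed the F test (Il1a with Il1b, Il2 with Il21, and Il12rb2 with Il23r), in 6 some passed and others did not, and in 3 none passed (Il17a with Il17f, Il17rc with Il17re, and Il20ra with Il22ra2). In the cluster of 6 IL-1 family genes on chromosome 2, Il1f9 and Il1rn passed while Il1f5, Il1f6, Il1f8 and Il1f10 did not. Of the 5 receptor genes on chromosome 1, Il1rl2 and Il18r1 passed and Il1r1, Il1r2 and Il18rap did not. Il10 passed without its neighbours Il19, Il20 and Il24, and Il21r without Il4ra.

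Genes that act with these receptors were counted in the same fit, and 24 of 30 listed partners were measured. In AML post MDS compared with HR-MDS mice 8 rose and 3 fell, 45.8% of the partners against 24.2% of all genes. Csf2rb, the beta chain of the IL-3, IL-5 and GM-CSF receptors, rose (1.62, adjusted p = 0.00104), as did Ebi3, which encodes a subunit of IL-27 (0.82, adjusted p = 0.0343). The IL-1 receptor adaptors Myd88 (0.86, adjusted p = 0.00240) and Tirap also rose, and so did the inflammasome genes Pycard (1.38, adjusted p = 0.000311) and Casp4. The others that rose were the kinase gene Tyk2 and Stat4, which acts below the IL-12 receptor (0.84, adjusted p = 0.0218). Those that fell were Jak1 (-0.40, adjusted p = 0.00387), Stat2 and Stat5b. Compared with MRP8NRASD12 mice 6 rose and 2 fell (33.3%, and 22.4% of all genes). Compared with MRP8hBCL2 mice Csf2rb alone rose (1.28, adjusted p = 0.0386), 4.17% of the partners against 1.93% of all genes.

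Among the founders 4 partners rose and 3 fell in MRP8NRASD12 compared with tethBCL2 mice, 29.2% against 8.83% of all genes. In MRP8NRASD12 compared with MRP8hBCL2 mice 4 fell (16.7%, and 22.1% of all genes), and in MRP8hBCL2 compared with tethBCL2 mice 4 rose (16.7%, and 22.6% of all genes). Stat4 was lowest in MRP8NRASD12 mice, at -1.49 against MRP8hBCL2 mice (adjusted p = 0.000706), the direction of Il12rb2 in the same arrays. Between HR-MDS mice and either founder no partner gene passed by limma. Before adjustment, p was under 0.05 for 2 of the 24 partners as higher and 1 as lower against tethBCL2 mice, where 11.3% of all genes reached it. Against MRP8NRASD12 mice it was under 0.05 for 1 higher and 3 lower, where 6.1% of all genes reached it.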

How the data were processed

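Sca1+ spleen mononuclear cells of 15 mice were hybridized to Affymetrix Mouse Exon 1.0 ST arrays. The log2 values, 1 per probe set and array, were deposited by the authors, who made them with EASANA and FAST DB annotations (mm9). The methods of summarizing probes and of scaling are not given in the sources read, and the filter that the authors set on detection was not applied.

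Of 23332 probe sets, 14996 carried 1 symbol, 1019 several and 7317 none, and only the first were used. For 135 genes with several probe sets the one with the highest mean was taken (among the members only Il17rd), which left 14860 genes. All 70 members matched RefSeq (GRCm38.p6) by Entrez number. A model with 5 group means over 15 arrays was fitted with limma 3.58.1 in R 4.3.3 (lmFit, eBayes), two-sided, with Benjamini-Hochberg adjustment over all genes and a threshold of 0.05. The precision is limited by the number of arrays, and p-values measure the spread between mice. Arrays of a group were of separate mice, and no array was dropped or imputed. Python 3.11.15 and matplotlib 3.10.9 were used for tables and plots.

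Genes named were those the study names and every member past the threshold in a comparison or in the F test. Where none passed, the 2 with the smallest p were named. The 5 ligands and 5 chains highest in mean and those widest in range were added. For some of these, but not for all, the other part of the receptor or ligand was named too. Il13ra2, which the study names, was not among the members. The members, the list of pathway partners and the marker lists (neutrophils, monocytes and macrophages, B cells, T cells, natural killer cells, basophils and mast cells, eosinophils) were chosen with earlier results of these data known.

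Alternatives were quantile normalization, subtraction of the array median, a filter that removed the lowest 0.25 of genes by mean, a fit restricted to the arrays compared, trend and robust eBayes, array weights, averaging over probe sets, the methods' t-test in its unpaired form, and omission of each array. A fit without 2 arrays was chosen after seeing the data. The steps were tested on simulated data: for HR-MDS minus tethBCL2, the fit called 23 of 50 genes at 1.5-fold, 44 at 2-fold, 48 at 4-fold and 50 at 8-fold, and 7 of 14660 unchanged genes. These draws were independent between genes.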

Additional observations from a re-analysis of the deposited data

How the results depend on the processing

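No call of a single member changed direction under any alternative. Of the 53 calls, 53 were kept with array weights and with probe sets averaged, 52 with trend and robust and 51 with quantile normalization. With the array median subtracted 50 were kept, and 38 in fits of only the arrays compared. Without the 2 arrays chosen after seeing the data 48 were kept. Leaving out the lowest genes kept 47 and removed the other calls with Il2 and Il21 from the test. The methods' t-test kept 42 unadjusted and 3 after Benjamini-Hochberg. With 1 array left out, the members called ranged from 11 to 17 for AML post MDS minus HR-MDS, from 8 to 19 for AML post MDS minus MRP8NRASD12, from 0 to 6 for AML post MDS minus MRP8hBCL2, from 0 to 3 for HR-MDS minus tethBCL2, from 0 to 0 for HR-MDS minus MRP8NRASD12, from 7 to 17 for MRP8NRASD12 minus MRP8hBCL2, from 3 to 17 for MRP8NRASD12 minus tethBCL2, from 4 to 10 for MRP8hBCL2 minus tethBCL2, from 0 to 0 for the difference of the 2 changes and from 19 to 28 for the F test, and calls of partner genes over the 8 comparisons from 26 to 42 (35 with all arrays). The highest counts with MRP8NRASD12 arrays came without MRP8NRASD12 8157.

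For HR-MDS minus tethBCL2, where no member passed, quantile normalization gave 2, subtraction of the array median 2, leaving out the lowest genes 2, only the arrays compared 1, array weights 5, the t-test unadjusted 9 and the fit without 2 arrays 3. For HR-MDS minus MRP8NRASD12 the unadjusted t-test gave 2. For AML post MDS minus MRP8hBCL2, with 2 members, the same settings gave 5, 6, 4, 0, 10, 9 and 5, and the adjusted t-test 0. Array weights gave 26 members for AML post MDS minus MRP8NRASD12, 19 for MRP8NRASD12 minus tethBCL2, 20 for MRP8NRASD12 minus MRP8hBCL2, 16 for MRP8hBCL2 minus tethBCL2, 37 for the F test and 60 partner calls. The fit without 2 arrays gave 21, 18 and 17 for the first 3 of these comparisons, and the unadjusted t-test 13 for MRP8NRASD12 minus tethBCL2. The adjusted t-test gave 1 for AML post MDS minus HR-MDS, 0 for AML post MDS minus MRP8NRASD12, 0 for MRP8NRASD12 minus tethBCL2, 0 for MRP8NRASD12 minus MRP8hBCL2, 2 for MRP8hBCL2 minus tethBCL2 and 4 partner calls. The cause of these shifts was not tested. Shares of all genes were not counted for quantile normalization, median subtraction, the filter, fits of only the arrays compared or array weights. Whether these shifts differ from those of all genes is therefore not known. By the unadjusted t-test 16.6% of all genes passed for HR-MDS minus tethBCL2, 10.2% for AML post MDS minus MRP8hBCL2 and 17% for MRP8NRASD12 minus tethBCL2. With the array median subtracted, MRP8NRASD12 minus tethBCL2 had 6 members higher and 2 lower, against 3 and 4 as deposited, and with quantile normalization 6 and 3. AML post MDS minus MRP8hBCL2 had 5 higher and 1 lower with the median subtracted and 3 and 2 with quantile normalization, against 2 and 0. No paired analysis was possible because no mouse number is shared between groups.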
